A study of Mus musculus with 16 samples.

Results

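The genes described here are 10 genes that carry iron into the cell, store it or let it out: Tfr2, Tfrc, Trf, Steap3, Slc11a2, Fth1, Ftl1, Slc40a1, Cp and Slc11a1. They were measured in mouse brown adipose tissue, among 15350 genes in all. The 10 were chosen by their function, around the level of Tfr2 in wildtype tissue under isoproterenol, which had been seen in these data. That value of Tfr2, and each comparison that contains it, is therefore given as a description without a test, leaving 9 members tested there and 10 elsewhere. No filter on low values was applied, so all 10 entered the fit, and 9 of them exceeded 1 CPM (reads scaled to a common library size) in every library. The exception was Tfr2.

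The study used C57BL/6J mice of 2 genotypes, wildtype (WT) and Ucp1-knockout (KO). Ucp1 encodes the uncoupling protein with which brown adipocytes turn fuel into heat. Each mouse carried an Alzet minipump for 3 days, which delivered either saline or isoproterenol, an agonist of beta-adrenergic receptors, at 60 mg/kg/day. Interscapular brown fat was then sequenced as polyadenylated RNA in 4 groups of 4 libraries (WT saline, WT isoproterenol, KO saline, KO isoproterenol), and the labels give neither age nor sex. Nor do they tie a library to an animal, so the spread between libraries, and with it every p-value, may be technical.

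Iron enters most cells bound to transferrin, the product of Trf, which transferrin receptor 1 (Tfrc) takes into endosomes. There Steap3 reduces the iron and Slc11a2 passes it to the cytosol, where ferritin, built from heavy chains (Fth1) and light chains (Ftl1), stores it. Ferroportin (Slc40a1) is the known exporter, and the ferroxidase ceruloplasmin (Cp) oxidises the iron that leaves. Tfr2 is a second transferrin receptor, best known from hepatocytes and erythroid cells, where it takes part in iron sensing, and Slc11a1 moves metal ions across the phagosome membrane of macrophages. In brown fat, iron is needed for heme and for the iron-sulfur clusters of the respiratory chain.

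Much of this system is controlled after transcription, by iron regulatory proteins that bind a hairpin with the loop letters CAGTGN in the RNA. Bound in a 5′ UTR it holds back translation, and bound in the 3′ UTR of Tfrc it protects the message from decay. The sites are shown because their place differs between Tfrc and the ferritins, while the search found none in Tfr2. The search took the letters CNNNNNCAGTGN on the transcript strand only, with 5 bases on either side of the loop able to pair, in UTRs of mouse transcripts (GENCODE annotation of GRCm38). It found 4 sites in the 3′ UTR of Tfrc (chromosome 16), printed 5′ to 3′ with the 6 loop bases in capitals, at bases 3315 to 3344, 3694 to 3723, 3759 to 3788 and 3806 to 3835 of the transcript in this order:
Tfrc: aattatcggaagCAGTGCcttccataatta
Tfrc: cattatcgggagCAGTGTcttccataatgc
Tfrc: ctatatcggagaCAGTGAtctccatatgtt
Tfrc: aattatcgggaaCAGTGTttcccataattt

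In the 5′ UTR, 3 members held 1 site each, Fth1 (chromosome 19) at bases 658 to 687 of its transcript, Ftl1 (chromosome 7) at bases 78 to 107 and Slc40a1 (chromosome 1) at bases 90 to 119:
Fth1: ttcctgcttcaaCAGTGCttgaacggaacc
Ftl1: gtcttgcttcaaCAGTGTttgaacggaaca
Slc40a1: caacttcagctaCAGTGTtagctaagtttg

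Among 21875 coding genes searched in the same way, 28 (0.128%) held such a site in a 5′ UTR and 127 (0.581%) in a 3′ UTR. A match is a match of letters and of bases able to pair, and not a measured site. The other 6 members held none, which says only that the letters and the pairing were not found together in the UTRs searched. The letters with a stem that pairs in another way would not have been counted, so an element of that kind is not excluded in these members. An element of this kind in a 5′ UTR acts on translation, which RNA levels do not show.

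The libraries held 9004515 to 20986735 reads over the 15350 genes, so that 1 read was worth 0.0476 to 0.115 CPM. Ucp1 reached 2298 to 3449 CPM in WT under saline and 8905 to 18458 under isoproterenol, against 410 to 1156 and 19.0 to 2129 in KO. Every KO library was thus below every WT library, though reads of the gene remained. Of 9 brown adipocyte markers all were measured, and their summed level was 17242 to 22256 CPM in the WT libraries and 18846 to 19940 in KO saline. On the first principal component of all genes, the 4 KO isoproterenol libraries lay at 57.5 to 176 and the other 12 at -62.0 to 3.97. The 4 also differed among themselves, with summed brown adipocyte markers of 3238, 10887, 17271 and 33596 CPM in replicates 1 to 4. Replicate 3 lay within the WT saline range (17242 to 19174 CPM) but below that of WT isoproterenol (19525 to 22256 CPM). Much of these sums was Fabp4, at 2577 to 26476 CPM in the 4 libraries. A sum within a WT range therefore does not mean like levels of each marker. The summed level of 12 macrophage markers was 8111, 2224, 4839 and 1049 CPM in the same 4 libraries, against 269 to 1060 in the other 12, a range that takes in replicate 4. Results in KO isoproterenol are therefore given library by library, and in bulk tissue fewer cells of a type and less RNA per cell cannot be told apart.

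Tfr2 had the widest range of the members as a ratio of the highest to the lowest library. In WT saline it was at 2.69, 1.22, 2.28 and 1.204 CPM in replicates 1 to 4, which rests on 13 to 30 reads per library. In WT isoproterenol it was at 55.7, 50.7, 30.5 and 59.1 CPM, from 442 to 844 reads. The groups did not overlap, and the means were 1.85 ± 0.754 and 49.0 ± 12.8 CPM (SD, n = 4 each). On the log2 scale the difference was 4.78 (SE 0.43), or 27.4-fold, and no test is given because this value drew the choice of the genes.

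In KO tissue Tfr2 stayed low under isoproterenol. The KO saline libraries were at 1.81, 5.12, 3.45 and 2.47 CPM and the KO isoproterenol libraries at 1.21, 0.649, 2.85 and 1.33 CPM, which rests on 10 to 61 reads per library. These ranges overlapped, with means of 3.21 ± 1.44 and 1.51 ± 0.940 CPM (SD, n = 4 each). Tfr2 fell by 1.18 on the log2 scale (SE 0.43), with an adjusted p of 0.0342 in limma, but 10 of 25 alternative analyses put that p above 0.05. With a fitted weight for each library the log2 change was -0.28 with an adjusted p of 0.576. Without KO saline replicate 2 the log2 change was -0.92 with an adjusted p of 0.112, and without KO isoproterenol replicate 2 it was -0.84 with 0.116 (limma). Leaving out KO saline replicate 3 gave an adjusted p of 0.0748 in limma, leaving out KO isoproterenol replicate 1 gave 0.0576, and the fit with a replicate block for the WT libraries gave 0.0564. All 4 KO isoproterenol libraries were below all 4 WT isoproterenol libraries, by 5.18 on the log2 scale (SE 0.43), a difference that is not tested. Under saline, KO exceeded WT by 0.78 on the log2 scale (SE 0.43), with overlapping ranges and an adjusted p of 0.796 (limma). The WT saline libraries are also part of the WT difference that drew the choice, so no conclusion is drawn from that p.

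**Figure D1:**
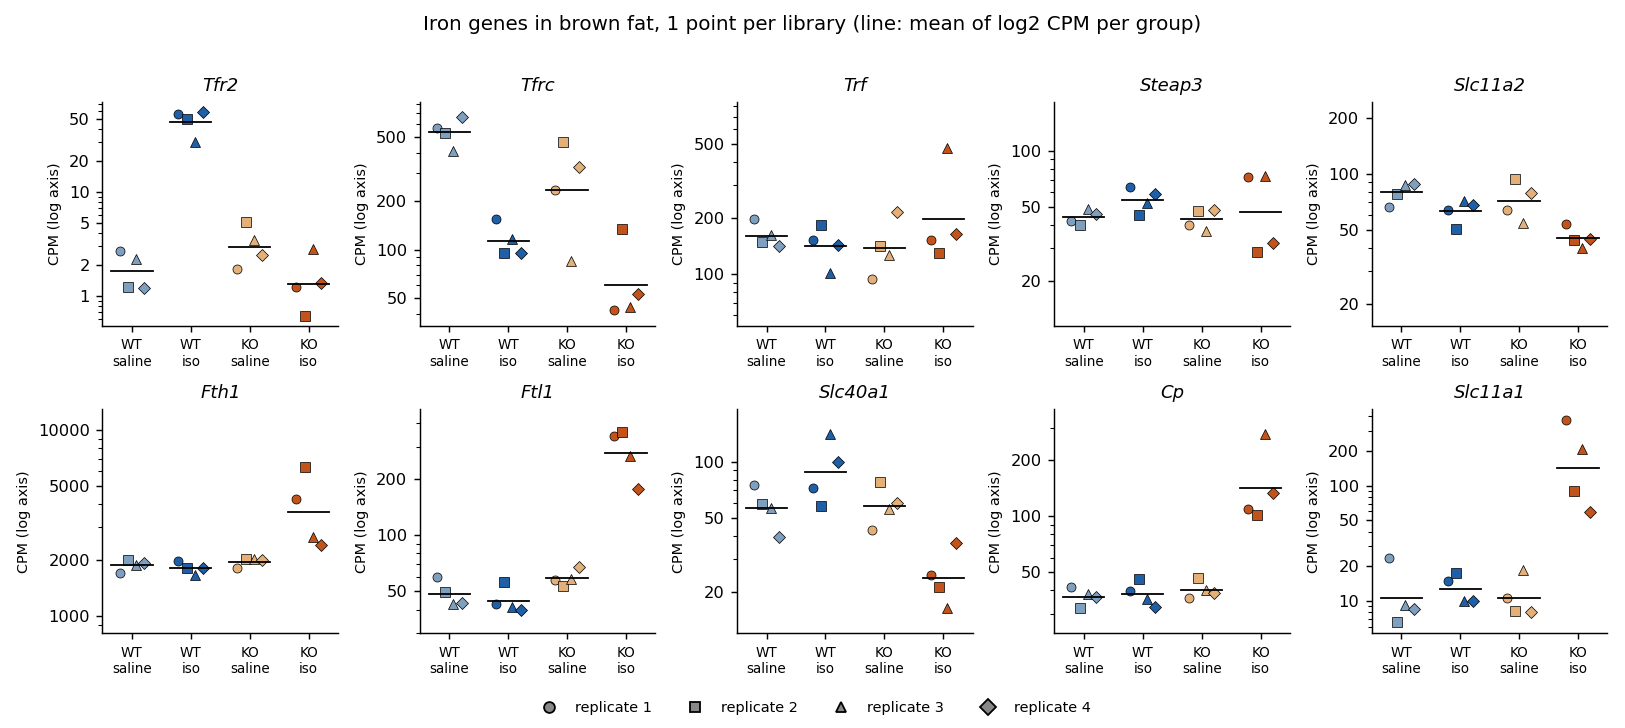
CPM on log axes in each of the 16 libraries, 1 panel per gene, with groups on the horizontal axis, replicates as symbols and a line at the mean of log2 CPM (iso, isoproterenol). Tfr2 is at 30.5 to 59.1 CPM in WT isoproterenol and at 0.649 to 5.12 CPM in the other 12 libraries, while Ftl1, Cp and Slc11a1 are high only in the KO isoproterenol panels.

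Tfrc, the receptor through which most cells take up transferrin, went the other way from Tfr2 in WT tissue and fell in both genotypes. WT saline libraries were at 566, 528, 410 and 663 CPM, and WT isoproterenol libraries at 156, 94.8, 117 and 95.0 CPM. The 2 groups did not overlap. The fall was 2.24 on the log2 scale (SE 0.44), 4.72-fold, with an adjusted p of 0.00355 in limma. It was the only call among the 9 members tested in WT, where 8.98% of all genes were called lower and 7.6% higher, with 1 member lower and 0 higher. At an unadjusted p under 0.05, 2 of the 9 passed in the same limma fit.

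The KO saline libraries were spread widely in Tfrc, at 235, 467, 84.9 and 328 CPM. KO isoproterenol libraries were at 42.1, 134, 44.3 and 53.1 CPM, so that replicate 2 of this group lay above replicate 3 of KO saline and the groups overlapped. Tfrc fell by 1.96 on the log2 scale (SE 0.44, adjusted p = 0.00214, limma). The responses in KO and in WT differed by 0.28 on the log2 scale (SE 0.63, adjusted p = 0.775, limma), an error that leaves room for a difference of either sign. That estimate became -0.21 without KO saline replicate 3 and -0.11 without KO isoproterenol replicate 2.

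Under saline, Tfrc was lower in KO by 1.18 on the log2 scale (SE 0.44), with an adjusted p of 0.608 in limma. It was the 1 member of 10 past an unadjusted p of 0.05, and 0 of 10 members passed the adjusted test, in which 0.0717% of all genes were higher and 0.0261% lower in KO. Weighting the libraries by their fitted quality called Tfrc there, at -1.55 with an adjusted p of 0.0347 (limma). Under isoproterenol Tfrc was lower in KO than in WT by 0.91 on the log2 scale (SE 0.44, adjusted p = 0.109, limma), and it passed without KO isoproterenol replicate 2 (-1.29, adjusted p = 0.0241, limma). It also passed without KO saline replicate 3 (adjusted p = 0.0400, limma) and with the library weights (-1.18, adjusted p = 0.0272, limma).

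Set per kb of transcript, which allows levels of different genes to be compared, the 2 receptors came close in 1 group only. Tfrc exceeded Tfr2 by 113 to 346 times in the WT saline libraries, with a median of 202. In the WT isoproterenol libraries the ratio was 1.75, 1.18, 2.40 and 1.01 in replicates 1 to 4. In KO saline it was 81.7, 57.3, 15.5 and 83.3, and in KO isoproterenol 21.8, 130, 9.77 and 25.1. The KO ranges overlapped each other, and no KO library came down to the range of WT isoproterenol. The ratios are a description, since they contain the Tfr2 value that chose the genes.

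**Figure D2:**
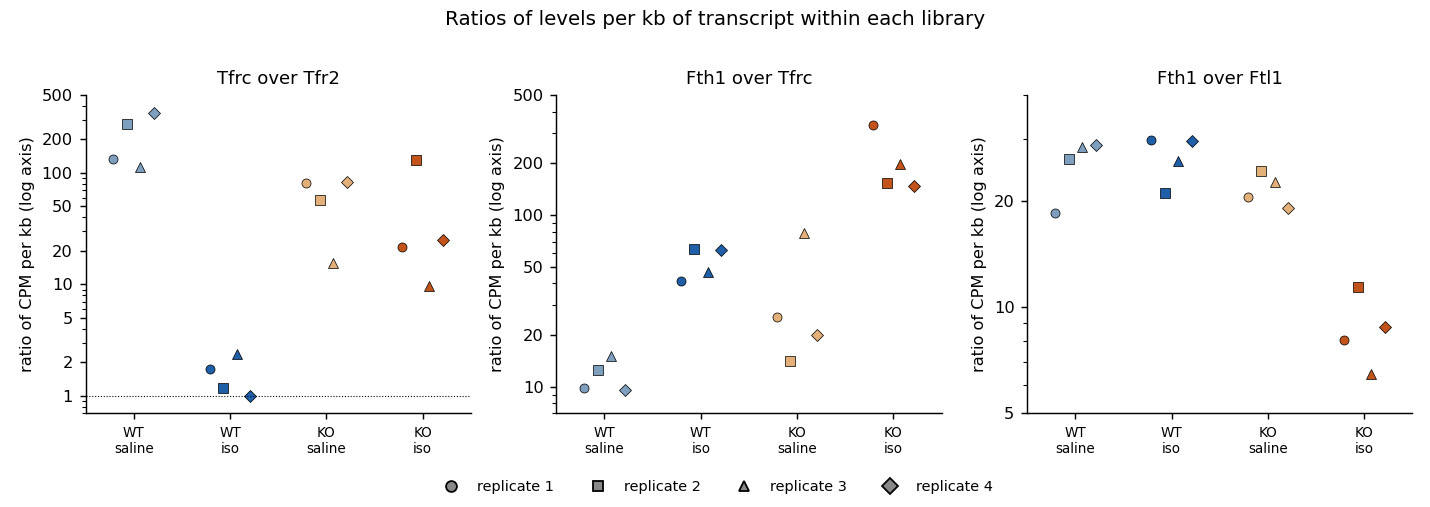
Ratios of CPM per kb of transcript within each library on log axes, with groups on the horizontal axis and replicates as symbols (iso, isoproterenol; dotted line, equal levels). Tfrc over Tfr2 is 1.01 to 2.40 in WT isoproterenol and at least 9.77 elsewhere, and Fth1 over Ftl1 is 6.46 to 11.4 in KO isoproterenol and at least 18.5 elsewhere.

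Of the other uptake genes, Slc11a2 fell in KO and neither Trf nor Steap3 passed the test in any of the 5 comparisons. Slc11a2, the endosomal iron transporter DMT1, was at 63.7, 93.5, 54.2 and 78.5 CPM in KO saline and at 53.9, 43.8, 39.7 and 44.3 CPM in KO isoproterenol. The highest of the latter lay just under the lowest of the former. Its reads may include some of Gm5475, annotated on the opposite strand. The log2 change was -0.65 (SE 0.17, adjusted p = 0.00491, limma) in KO and -0.34 (SE 0.17, adjusted p = 0.189, limma) in WT, and the difference between the responses was -0.31 (SE 0.24, adjusted p = 0.345, limma). Under isoproterenol Slc11a2 was lower in KO by 0.47 on the log2 scale (adjusted p = 0.0314, limma). Scaling to library totals ended that call, at -0.22 with an adjusted p of 0.286, and leaving out any of WT isoproterenol replicates 1, 3 and 4 or KO isoproterenol replicates 2 and 3 gave adjusted p values of 0.0610 to 0.0881 (limma).

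Trf, which encodes the carrier protein transferrin, was at 142 to 197 CPM in WT saline and 102 to 184 under isoproterenol. It was at 94.2 to 216 CPM in KO saline and at 152, 130, 474 and 164 CPM in KO isoproterenol. Replicate 3 alone stood above the other libraries, and the log2 change in KO was 0.52 (SE 0.34, adjusted p = 0.229, limma). Weighting the libraries gave 1.54 with an adjusted p of 5.47e-04, a fit in which KO isoproterenol replicate 3 had a weight of 3.37 and the other 3 libraries of the group weights of 0.167 to 0.314. Of the 75-base stretches of the Trf transcript, 78.6% also occur in Gm20425, an annotated gene that overlaps it on the same strand and is not listed, so a part of the reads could have been assigned elsewhere.

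Steap3, the endosomal ferrireductase, was at 42.2, 40.04, 48.6 and 46.0 CPM in WT saline and 63.8, 45.4, 52.5 and 59.0 CPM in WT isoproterenol. The KO isoproterenol libraries split into a high pair, replicates 1 and 3 at 72.0 and 73.7 CPM, and a low pair, replicates 2 and 4 at 28.7 and 32.1 CPM. KO saline lay between them at 37.3 to 48.3 CPM. The log2 change was 0.31 (SE 0.26, adjusted p = 0.453, limma) in WT and 0.13 (SE 0.26, adjusted p = 0.704) in KO.

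Both ferritin genes rose in KO, and neither passed the test in WT. Fth1 was the most abundant member per kb in all 4 groups, at 1699, 2012, 1886 and 1926 CPM in WT saline and 1971, 1827, 1661 and 1813 CPM in WT isoproterenol. KO saline was at 1825, 2025, 2031 and 1998 CPM, so that these 12 libraries lay between 1661 and 2031 CPM. KO isoproterenol was at 4286, 6319, 2667 and 2402 CPM, each above every other library. In KO, Fth1 rose by 0.88 on the log2 scale (SE 0.28, adjusted p = 0.0167, limma), or 1.84-fold. Without KO isoproterenol replicate 2 the change was 0.62 with an adjusted p of 0.0525, and a fit of the KO libraries alone gave 0.122 (limma).

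In WT the log2 change of Fth1 was -0.05 (SE 0.28, adjusted p = 0.930, limma). Between the genotypes under isoproterenol Fth1 was higher in KO by 1.0 (SE 0.28, adjusted p = 0.00928), with an adjusted p of 0.0945 when only those 8 libraries were fitted. The difference of the responses, 0.93 (SE 0.40), did not pass the test (adjusted p = 0.0957, limma). It passed with library totals (1.23, adjusted p = 0.0480), with the library weights (0.63, adjusted p = 0.0441) and without KO isoproterenol replicate 4 (1.13, adjusted p = 0.0191).

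Ftl1 moved further than Fth1. It was at 59.7, 49.5, 42.8 and 43.1 CPM in WT saline, 42.8, 56.3, 41.4 and 39.7 in WT isoproterenol and 57.8, 53.8, 58.2 and 67.8 in KO saline. In KO isoproterenol it was at 344, 358, 268 and 177 CPM, with no overlap. The log2 change in KO was 2.22 (SE 0.20, adjusted p = 1.14e-06, limma), 4.67-fold, and in WT it was -0.12 (SE 0.20, adjusted p = 0.736, limma). The responses differed by 2.34 on the log2 scale (SE 0.28, adjusted p = 2.09e-04, limma).

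Both ferritin genes carry the 5′ element printed above, and their ratio shifted. Fth1 exceeded Ftl1 per kb by 18.5 to 28.9 times in WT saline, 21.03 to 29.9 in WT isoproterenol and 19.1 to 24.4 in KO saline, but by 8.08 (replicate 1), 11.4 (replicate 2), 6.46 (replicate 3) and 8.79 (replicate 4) in KO isoproterenol. Of the 75-base stretches of the Ftl1 transcript, 69.9% also occur in 6 other annotated genes or pseudogenes, of which Ftl1-ps1 and Gm15590 are listed in these data. Ftl1-ps1 was at 0.458 to 1.12 CPM in the other 12 libraries and 2.53 to 4.48 CPM in KO isoproterenol. Levels of Ftl1 are therefore uncertain, because reads can be split between these copies. For Fth1 the share was 2.32%.

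Set against Tfrc, ferritin gained in both genotypes. Fth1 over Tfrc per kb was 9.51 to 15.1 in WT saline and 41.5 to 63.0 in WT isoproterenol, where Fth1 itself did not move beyond its error. It was 25.4, 14.2, 78.3 and 19.97 in the KO saline libraries and 333, 154, 197 and 148 in the KO isoproterenol libraries. Neither pair of ranges overlapped.

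On the export side, Slc40a1 and Cp went in opposite directions in KO. Slc40a1, which encodes ferroportin, was at 42.7, 77.7, 55.6 and 59.6 CPM in KO saline and at 24.7, 21.2, 16.3 and 36.4 CPM in KO isoproterenol, without overlap. It fell by 1.28 on the log2 scale (SE 0.29, adjusted p = 0.00223, limma). In WT the libraries were at 75.3, 59.0, 56.1 and 39.4 CPM under saline and 72.4, 57.5, 140 and 100.1 CPM under isoproterenol, which overlapped, with a log2 change of 0.64 (SE 0.29, adjusted p = 0.151, limma). With the libraries weighted, that change was 0.76 with an adjusted p of 0.0259. The responses differed by -1.93 on the log2 scale (SE 0.41, adjusted p = 0.00562, limma).

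Cp was steady in 3 groups, at 32.1 to 41.6 CPM in WT saline, 32.7 to 45.9 in WT isoproterenol and 36.4 to 46.5 in KO saline. In KO isoproterenol it was at 110, 102, 276 and 133 CPM. Replicate 3 was the highest for Cp, as it was for Trf, and the lowest for Slc40a1. Cp rose in KO by 1.83 on the log2 scale (SE 0.24, adjusted p = 2.99e-05, limma), 3.54-fold, the change in WT was 0.05 (SE 0.24, adjusted p = 0.913, limma), and the responses differed by 1.77 (SE 0.33, adjusted p = 0.00309, limma). Hps3 overlaps Cp on the opposite strand and was at 22.0 to 50.3 CPM in KO isoproterenol, 18.4 to 25.1 in KO saline. Whether the counting used the strand is not given in the sources used here, so reads of the 2 genes may be mixed.

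Slc11a1, the phagosomal metal transporter NRAMP1, had the largest fitted change of the members in KO. It was at 10.6, 8.20, 18.5 and 7.98 CPM in KO saline and at 369, 89.5, 210 and 59.3 CPM in KO isoproterenol. All 4 libraries exceeded every other, and they differed among themselves by more than the saline libraries did. The log2 change was 3.74 (SE 0.51, adjusted p = 4.19e-05, limma), 13.4-fold. In WT, the libraries were at 23.5, 6.55, 9.26 and 8.59 CPM under saline and 15.0, 17.5, 10.04 and 10.05 under isoproterenol, a change of 0.28 (SE 0.51, adjusted p = 0.757, limma). The responses differed by 3.46 (SE 0.71, adjusted p = 0.00481, limma).

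The 2 transporters of the same family exchanged places. Per kb, Slc11a1 was at 0.109 to 0.465 of the level of Slc11a2 in WT saline, 0.185 to 0.452 in WT isoproterenol and 0.115 to 0.445 in KO saline. In KO isoproterenol it was at 1.75 to 8.95 times that level.

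**Figure D3:**
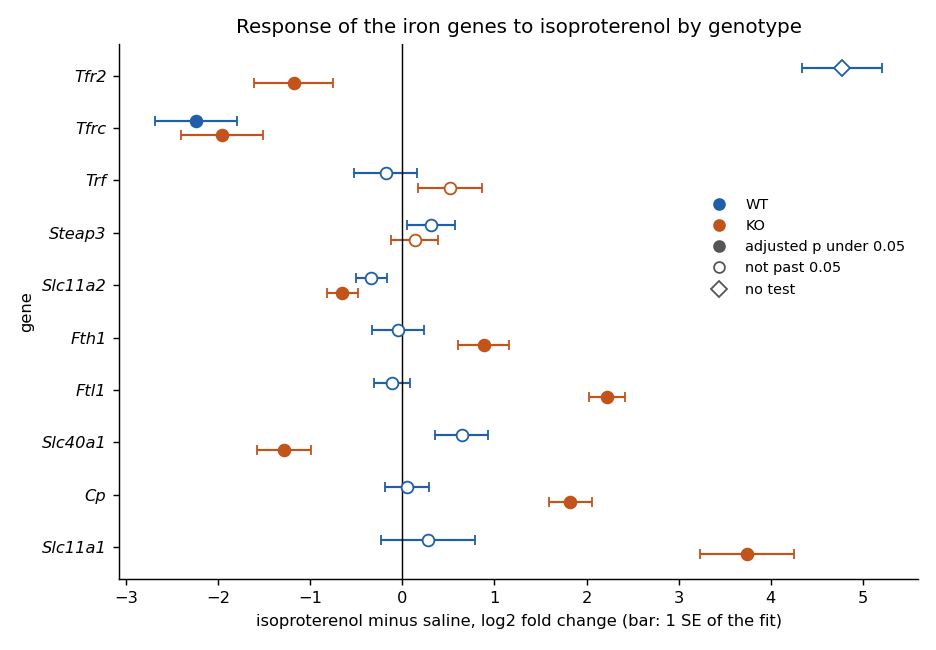
Fitted log2 fold change of isoproterenol against saline for each gene, in WT (blue) and KO (orange), with bars of 1 SE (filled circles, adjusted p under 0.05 in limma; open circles, not past it; open diamond, no test). Tfrc is the 1 gene with a filled circle in both genotypes, and the 4 genes with filled circles to the right of 0 are Fth1, Ftl1, Cp and Slc11a1 in KO.

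Counted together, 8 of the 10 members changed with isoproterenol in KO. Of these, 4 rose (Slc11a1, Ftl1, Cp, Fth1), where 23.8% of all genes were called higher, and 4 fell (Tfrc, Slc40a1, Tfr2, Slc11a2), where 24.8% were called lower. The median change was 0.32 for the members and 0.00 for all genes on the log2 scale. Without 1 library at a time the count was 6 to 8, with 7 when KO isoproterenol replicate 1 was left out.

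Under isoproterenol, 6 of 9 members tested differed between the genotypes. Cp, Fth1, Ftl1 and Slc11a1 were higher in KO, with log2 differences of 1.90, 1.0, 2.63 and 3.48, where 21.6% of all genes were called higher. Slc40a1 and Slc11a2 were lower, by 1.89 and 0.47 on the log2 scale, where 23.1% were called lower. The responses themselves differed for 4 of 9, with Ftl1, Slc11a1 and Cp higher (10.9% of all genes) and Slc40a1 lower (13.8% of all genes). The median difference under isoproterenol was 0.48 for the 9 members and 0.02 for all genes, and that of the responses 0.70 and 0.04. The comparisons that share the KO isoproterenol libraries are not independent of each other.

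The order of the levels per kb shows where the groups part. In WT saline it ran from Fth1 at 1259 CPM per kb through Tfrc at 111, Trf at 63.2, Ftl1 at 50.4, Slc11a2 at 26.3, Slc40a1 at 17.05, Cp at 9.22, Steap3 at 8.57 and Slc11a1 at 5.17 to Tfr2 at 0.602. Neighbouring ranges overlapped between Trf and Ftl1, between Slc11a2 and Slc40a1, and along Cp, Steap3 and Slc11a1. In WT isoproterenol Tfrc came to 23.6 and Tfr2 to 15.95 CPM per kb, with Slc11a2 at 20.9 between them, and the ranges of all neighbours from Trf down to Cp overlapped. In KO isoproterenol Ftl1 was second at 296 CPM per kb, Slc11a1 stood at 78.6, and Tfr2 last at 0.491. In KO saline the order from Slc11a2 down was that of WT saline, while Ftl1 at 61.4, Tfrc at 57.0 and Trf at 56.3 CPM per kb stood close, Tfrc overlapping both.

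Macrophage markers moved with several of these genes. All 12 of the 12 markers rose in KO isoproterenol against KO saline, where 23.8% of all genes were called higher. In WT 2 of 12 rose, where 7.6% of all genes did. That count was 0 with a replicate block in WT, 4 with voom weights and 8 with library weights or with only the WT libraries fitted. The summed level was 1049 to 8111 CPM in KO and 593 to 1060 CPM in WT under isoproterenol, against 355 to 635 and 269 to 612 CPM under saline, and none of the 12 was at 0 reads throughout any group. The order of the 4 KO isoproterenol libraries in the sum, replicates 1, 3, 2 and 4, was also their order in Slc11a1. It was not their order in Ftl1 or Fth1, both highest in replicate 2, nor in Cp, highest in replicate 3. KO isoproterenol replicate 4 and WT isoproterenol replicate 2 had summed markers of 1049 and 1060 CPM, while Slc11a1 was at 59.3 and 17.5 CPM in them, Ftl1 at 177 and 56.3, Cp at 133 and 45.9 and Fth1 at 2402 and 1827. Sums this close do not mean like levels of each marker. Cd68 was at 192 to 1038 CPM in KO isoproterenol and at 29.5 to 65.0 CPM in WT isoproterenol. Other markers overlapped, among them Lyz2 (327 to 4678 and 210 to 443 CPM) and Mrc1 (53.9 to 273 and 62.5 to 101 CPM). The part of macrophage RNA in these results was not tested beyond these values.

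**Figure D4:**
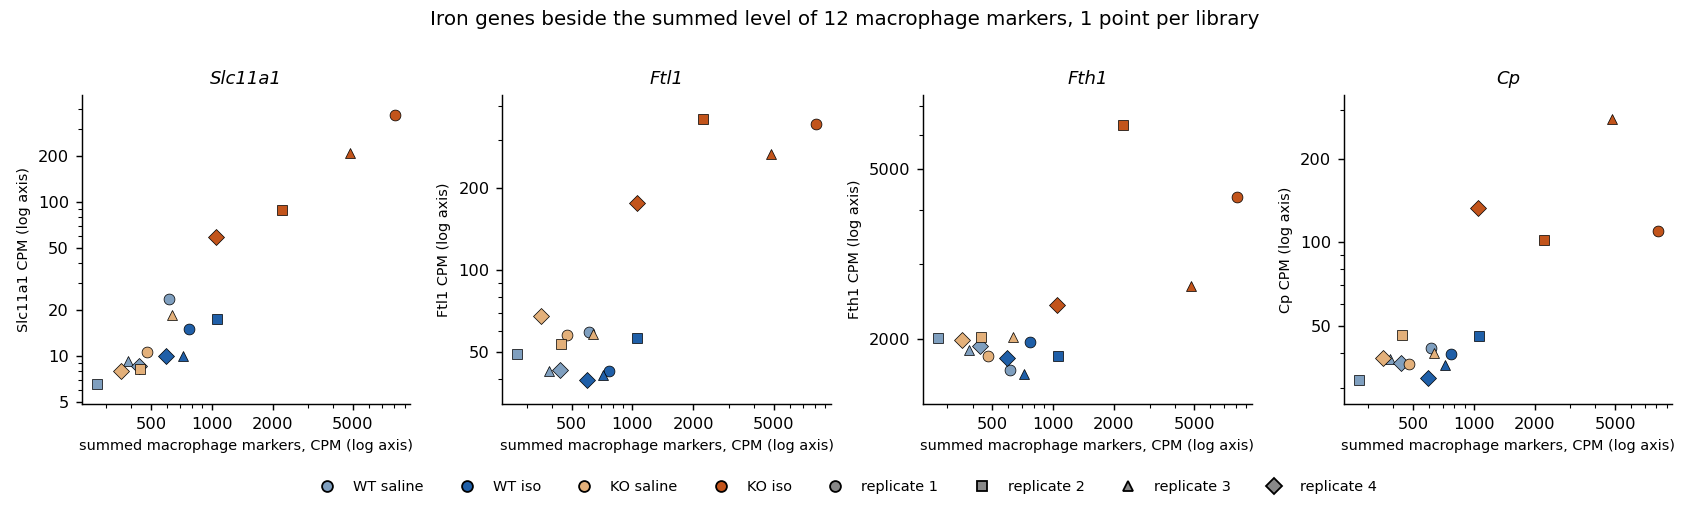
CPM of Slc11a1, Ftl1, Fth1 and Cp against the summed CPM of 12 macrophage markers, both on log axes, with 1 point per library (color, group; symbol, replicate; iso, isoproterenol). The KO isoproterenol libraries run in the same order on both axes for Slc11a1 but not for Ftl1, Fth1 or Cp.

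Neutrophil markers, of which 7 of 12 were listed, summed to 68.2 to 451 CPM with isoproterenol in KO and 6.15 to 8.67 CPM without, with 6 of 7 higher and 1 lower. The lower one was Elane, at 0.287 to 1.17 CPM in KO saline. Its call was lost with library totals, with library weights and with only the KO libraries fitted. Leaving out any 1 of KO saline replicates 1 to 3 or KO isoproterenol replicates 1 and 4 also ended it. In WT the neutrophil markers summed to 7.26 to 12.9 CPM under saline and 16.7 to 32.0 under isoproterenol, without overlap, with 3 of 7 higher and 1 lower. The 6 listed of 9 erythroid markers all fell in KO, from a summed 232 to 391 CPM under saline to 84.0 to 150 CPM, and 0 of 6 passed in WT (0 at an unadjusted p under 0.05, limma). Brown adipocyte markers fell for 5 of 9 in KO, and for 3 of 9 with only the KO libraries fitted. Beside these counts, 23.8% of all genes were called higher and 24.8% lower in KO, and 7.6% and 8.98% in WT. Skeletal muscle markers, 8 of 9 listed, summed to 5.46 to 8210 CPM over the 16 libraries, with 0 of 8 called in either genotype (also 0 at an unadjusted p under 0.05, limma). Their part in the results for the iron genes was not tested.

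The other genes of iron handling were described from 4 lists. The list of other carriers and oxidoreductases had 16 of 19 genes listed, among them scavengers of iron, heme and hemoglobin. In KO, 9 rose and 3 fell, where 23.8% of all genes were called higher and 24.8% lower, with a median log2 change of 0.97 against 0.00 for all genes. Lcn2, which encodes the siderophore-binding lipocalin 2, rose by 6.81 on the log2 scale (SE 0.46, adjusted p = 1.65e-07, limma), from 0.625 to 1.38 CPM under saline to 72.0 to 153 CPM. Hpx, which encodes the heme scavenger hemopexin, rose by 4.11 (SE 0.997, adjusted p = 0.00342, limma), but over 1.40 to 81.1 CPM in the 4 libraries, and voom weights put it at an adjusted p of 0.0607. Slc39a8, a divalent metal importer, fell by 0.93 and Heph, a ferroxidase that works with ferroportin, fell by 0.86 on the log2 scale. Each of these 2 calls was lost under 1 of 25 alternatives, at adjusted p values of 0.0536 and 0.0510 (limma). Cd163, which takes up hemoglobin, is on both this list and the macrophage list, and the macrophage and neutrophil markers given above rose in the same libraries.

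In WT, 2 genes of the list rose and 4 fell (7.6% and 8.98% of all genes), with a median of -0.38 against -0.02. Lcn2 rose by 3.43 (SE 0.46, adjusted p = 2.49e-04, limma), and Steap1, of the same family as Steap3, by 2.31 (SE 0.45, adjusted p = 0.00337) from a level of 0.309 to 0.457 CPM. The neutrophil markers given above were also higher in sum in these WT libraries, and their part in the rise of Lcn2 was not tested. Hp, which encodes the hemoglobin-binding haptoglobin, fell by 1.83, from 816 to 1262 CPM to 190 to 414 CPM, and Heph fell by 1.37. Without WT isoproterenol replicate 4 the call of Hp was lost (adjusted p = 0.0573, limma) and 1 gene of the list was called lower. The count of 4 became 2 with a replicate block in WT and without any 1 of WT saline replicates 3 and 4, WT isoproterenol replicates 2 and 3 and KO saline replicates 3 and 4, and without KO isoproterenol replicate 1 the count of 2 higher became 5. The responses differed between the genotypes for 6 of 16 genes, all 6 higher in KO, where 10.9% of all genes were called higher and 13.8% lower.

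Of 22 genes of iron-sulfur cluster assembly and mitochondrial iron handling, 18 fell and 1 rose in KO, where 24.8% of all genes were called lower and 23.8% higher, and 3 did not pass the test. The median log2 change was -0.99 against 0.00 for all genes, and 11 fell when the KO libraries were fitted alone. Abcb8, a transporter of the inner mitochondrial membrane, went from 209 to 307 CPM in KO saline to 24.3 to 114 CPM in KO isoproterenol and fell by 2.27 on the log2 scale (SE 0.35, adjusted p = 1.34e-04, limma). Bola3, a late-acting assembly factor, went from 158 to 197 CPM to 19.1 to 111 CPM and fell by 2.0. The 1 gene that rose was Slc25a28, mitoferrin 2, which carries iron into mitochondria, by 0.75 (SE 0.17, adjusted p = 0.00218). In WT 1 of 22 was called, the chaperone Hscb, which fell by 0.75 (SE 0.17, adjusted p = 0.00665, limma), and the median was 0.17. A fit of the WT libraries alone called 6 of 22 higher and 1 lower, where 2501 of all genes were called higher and 2422 lower. Without KO isoproterenol replicate 1, 4 of 22 were called higher in WT in place of 0, and without replicate 4 of that group 1 in WT and 2 in KO (in the fit of all libraries 2 of 22 passed an unadjusted p of 0.05). The responses differed between the genotypes for 15 of 22 genes, all 15 lower in KO, where 13.8% of all genes were called lower and 10.9% higher. The summed brown adipocyte markers of the 4 KO isoproterenol libraries, 3238 to 33596 CPM, followed the order of the summed list, 576, 896, 1035 and 1624 CPM in replicates 1 to 4. Much of the marker sum was Fabp4, at 2577 to 26476 CPM in the same 4 libraries.

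Of 18 heme genes, 1 rose and 8 fell in KO, where 23.8% of all genes were called higher and 24.8% lower, with a median of -0.50 against 0.00. Hmox1, which encodes the heme oxygenase that frees iron from heme, rose by 5.04 on the log2 scale (SE 0.31, adjusted p = 1.04e-07, limma), from 12.7 to 22.7 CPM to 411 to 1148 CPM. The synthesis genes Alad and Alas2 fell by 1.75 and 1.57, and Alas2 is also one of the erythroid markers, which fell in the same libraries. The count of 1 higher became 2 without KO isoproterenol replicate 1 or 2. In WT 2 rose and 4 fell, where 7.6% and 8.98% of all genes did. Hmox1 rose by 1.01 (SE 0.31, adjusted p = 0.0392, limma), a call lost under 8 of 25 alternatives, among them the replicate block in WT and leaving out any 1 of WT saline replicates 2 to 4 or WT isoproterenol replicates 1 to 3, and Uros, a heme synthesis enzyme, rose by 0.75. Flvcr1, a heme exporter, fell by 1.58 and Blvra, a biliverdin reductase, by 0.78. Leaving out WT saline replicate 2, WT isoproterenol replicate 2 or WT isoproterenol replicate 4 ended the call of Blvra. Leaving out either replicate 2 or WT isoproterenol replicate 4 left 2 heme genes called lower in place of 4. The responses differed for 8 of 18 heme genes, 3 higher and 5 lower in KO, where 10.9% and 13.8% of all genes were called.

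Of 14 regulators 10 were listed, and Hamp, Hamp2, Hjv and Erfe were not. In KO 1 rose and 2 fell, with a median of -0.10, where 23.8% of all genes were called higher and 24.8% lower. Fbxl5, the iron-sensing ubiquitin ligase subunit that removes iron regulatory protein 2, rose by 0.72 (SE 0.11, adjusted p = 1.32e-04, limma), and Aco1, iron regulatory protein 1, fell by 1.22 (SE 0.20, adjusted p = 1.90e-04), from 300 to 404 CPM to 101 to 203 CPM. Hfe, a partner of the transferrin receptors, fell by 0.53 in KO, where 3 of 25 alternatives ended the call with an adjusted p of up to 0.0893, among them leaving out KO saline replicate 4 or KO isoproterenol replicate 2. Without KO isoproterenol replicate 1, 2 regulators were called higher in KO in place of 1, and without replicate 4 of that group 2 in place of 1 in WT. In WT Hfe rose by 0.74 (SE 0.17, adjusted p = 0.00857), from 34.0 to 42.8 CPM to 60.1 to 69.2 CPM, and Pcbp2, an iron chaperone, fell by 0.39 (adjusted p = 0.0194). Of the 25 alternatives, the replicate block in WT and the fit without WT saline replicate 2 ended the call of Pcbp2, with an adjusted p of up to 0.0568. Hfe and Pcbp2 were the regulators called in WT, 1 higher and 1 lower, where 7.6% and 8.98% of all genes were called. The responses differed between the genotypes for 4 of 10 regulators, 1 higher and 3 lower in KO (10.9% and 13.8% of all genes). They were Fbxl5 (0.61, adjusted p = 0.0138, limma), Hfe (-1.28, adjusted p = 0.00310), Aco1 (-1.15, adjusted p = 0.0102) and Tmprss6, a membrane protease that restrains hepcidin (-2.79, adjusted p = 0.0281), which was at or below 2.02 CPM in every library and was named after its values were seen. Under saline, 0 genes of the 4 lists differed between the genotypes in limma, with 2 regulators, 2 carriers, 0 iron-sulfur genes and 1 heme gene past an unadjusted p of 0.05.

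**Figure D5:**
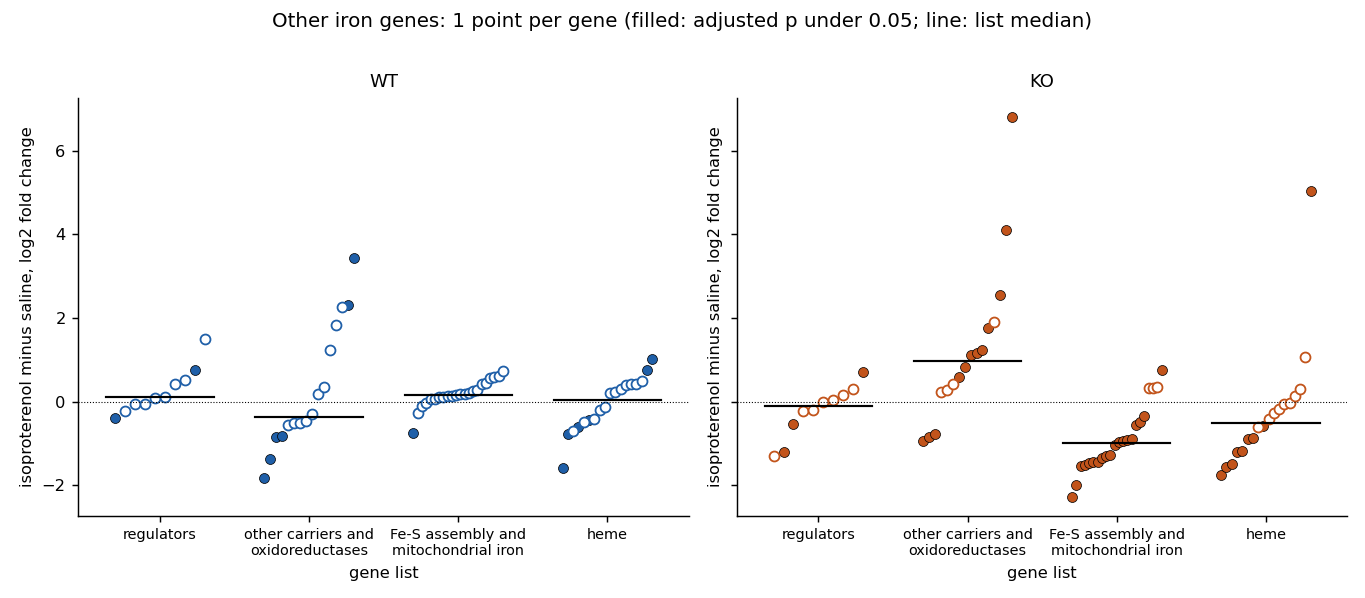
Fitted log2 fold change of isoproterenol against saline for the genes of 4 further iron lists, in WT (left) and KO (right), with 1 point per gene ordered by value, filled where the adjusted p is under 0.05 in limma, and a line at the list median. In KO 18 of 22 genes of the iron-sulfur list lie below 0 as filled points, and Lcn2 and Hmox1 lie at 6.81 and 5.04.

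The genes most like 3 of the members over the 16 libraries were found by Pearson correlation of log2 CPM among 14278 genes with a mean of at least 1 CPM. Nearest to Tfr2 were Nudt1 (r = 0.956), Tst (r = 0.952) and Mrpl54 (r = 0.937). Tst had means of 39.5 ± 2.14 CPM in WT saline, 153 ± 13.95 in WT isoproterenol, 38.1 ± 7.03 in KO saline and 20.9 ± 7.19 in KO isoproterenol (SD, n = 4 each). Nearest to Tfrc were Rgmb (r = 0.954), A930004D18Rik (r = 0.948) and Amotl2 (r = 0.942). Nearest to Slc11a1 were Itgb2 (r = 0.994), Gpnmb (r = 0.993) and Cd44 (r = 0.992). These libraries fall into 4 groups and the r describes mainly the group means.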

How the data were processed

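Brown adipose RNA of 16 libraries was sequenced with a stranded mRNA kit as 75-base single reads, per the labels' protocols. STAR, limma and the mm39 build are named in the submitters' processing notes, without versions. How reads were counted per gene is not given in the sources used here. The deposited values are log2 CPM of 15350 genes, computed by the authors with 0.5 added to each count. They gave back whole reads for 100% of values (tolerance 1e-06), and the library sizes behind them were 0.854 to 1.25 times the read totals. Symbols were found for 15320 of the Ensembl IDs. Limma 3.58.1 (R 4.3.3) fitted 4 group means to the log2 CPM, with trend and robust variance and 12 residual degrees of freedom. P-values were adjusted by Benjamini and Hochberg over all 15350 genes, with a threshold of 0.05, and tests were two-sided. The members and gene lists were chosen with earlier results of these data known. Of each further list the text names, in each genotype, the called genes with the largest changes, at most 2 in each direction. The fit was also run on simulated data with the same spread in every group and changes in WT isoproterenol only. That run does not show how the fit behaves with the uneven KO isoproterenol libraries.

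Alternatives were library totals as scaling, voom weights on the recovered reads, a weight for each library, the libraries of 1 contrast alone, a filter of 1 CPM in 4 libraries, log2(CPM + 1), replicate blocks and leaving out each library. Same-numbered WT saline and WT isoproterenol libraries deviated together in all 4 pairs (r of 0.210 to 0.535 over genes), so those numbers were taken as pairing them, and a block in WT only was added after seeing the data. No other pair of groups met that rule. For 3 KO saline columns the header gives another replicate number than the sample title, and the title was used. The treatment text of the saline samples describes isoproterenol, and their treatment label was used. Transcript lengths and UTRs came from a GRCm38 annotation, and no genome coordinates are given. Lengths and site positions of the members are those of the longest transcript marked there as principal. For Fth1 that transcript has 1494 bases, and the Fth1 site was found in 3 transcripts of the gene.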

Additional observations from a re-analysis of the deposited data

Results flagged for a closer look

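The isoproterenol responses of 4 tested members differed between the genotypes, as KO minus WT on the log2 scale with limma: Ftl1 by 2.34 (adjusted p = 2.09e-04), Slc11a1 by 3.46 (adjusted p = 0.00481), Cp by 1.77 (adjusted p = 0.00309) and Slc40a1 by -1.93 (adjusted p = 0.00562). For Ftl1, Slc11a1 and Cp all 4 KO isoproterenol libraries lay above every other library, and for Slc40a1 all 4 lay below. The value for Tfr2, -5.96, was not tested, because it contains the WT isoproterenol level that chose the genes.

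In KO saline, Fth1 was at 1825 CPM in replicate 1, apart from 1998 to 2031 CPM in the other 3 libraries. This was 1 of 40 gene and group combinations examined for a library apart from its group, and chance alone marks about 1 in 20.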

How the results depend on the processing

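Over 25 alternatives (24 for the difference of the responses), the counts of members called stayed within 1.5 times, except with the library weights, which gave 2 in place of 1 in WT and 1 in place of 0 between the genotypes under saline. Under saline these weights also took the calls over all genes from 11 higher and 4 lower to 317 and 411. The replicate block over all libraries changed 1 member call, Tfr2 in KO (adjusted p = 0.0505), and the block in WT only changed the same one (0.0564); neither changed a member's call in WT. The pairs of numbers outside WT had r of -0.431 to 0.394, which gives no ground for pairing them. Several small values, none of them called, changed sign. With library totals, Cp in WT was -0.062, Slc11a1 between the genotypes under saline -0.022, Steap3 between them under isoproterenol 0.037 and the difference of the Steap3 responses 0.11. With library weights the last 2 were 0.26 and 0.37. Leaving out 1 library at a time gave -0.036 to 0.13 for Cp in WT and -0.085 to 0.37 for Steap3 in KO. Between the genotypes it gave -0.13 to 0.18 for Slc40a1, -0.25 to 0.40 for Slc11a1 and -0.096 to 0.028 for Steap3 under saline, and -0.44 to 0.018 for Steap3 under isoproterenol. The differences of the responses ran from -0.21 to 0.61 for Tfrc and from -0.40 to 0.057 for Steap3. The cause was not tested.

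With library totals the median over all genes shifted by -0.11 in WT, 0.18 in KO, 0.26 between the genotypes under isoproterenol and 0.29 in the difference of the responses. The calls over all genes went from 1167 higher and 1379 lower to 770 and 1748 in WT, from 3647 and 3813 to 4493 and 2939 in KO, from 3311 and 3542 to 5030 and 2527 between the genotypes under isoproterenol, and from 1674 and 2113 to 2895 and 1477 in the difference. With the library weights the WT counts of the further lists rose to 4 regulators higher, 5 carriers higher and 7 lower, 5 iron-sulfur genes higher, and 4 heme genes higher and 7 lower, while 1 carrier was lower, 3 iron-sulfur genes and 4 heme genes were higher in KO. Calls over all genes rose too under these weights, to 2669 higher and 2789 lower in WT and to 4343 and 4367 in KO. With only the WT libraries fitted, 2 regulators, 4 carriers, 6 iron-sulfur genes and 4 heme genes were higher and 8 carriers lower. That fit called 2501 of all genes higher and 2422 lower. Without KO isoproterenol replicate 1, 1770 of all genes were called higher and 1870 lower in WT. With log2(CPM + 1) the difference of the Tfr2 responses was -4.88. Outside WT isoproterenol Tfr2 rested on 10 to 61 reads per library, which limits its KO comparisons, and the number of libraries limits the rest.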
